A study of Mus musculus with 33 samples.

Results

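Nuclear encoded oxidative phosphorylation genes were followed in sorted mouse immune cells of an islet xenotransplant model of tolerance. They were taken as the protein-coding genes of the mouse GRCm38 annotation whose symbols start with Nduf, Uqcr, Cox4 to Cox8 or Atp5, together with Sdha, Sdhb, Sdhc and Sdhd. The rule gave 94 of the 31054 counted genes, which carried 93 symbols because Atp5o had 2 gene identifiers. By the complex to which each product belongs, 36 were subunits of complex I, 8 were complex I assembly factors, 4 belonged to complex II, 8 to complex III, 20 to complex IV and 18 to complex V. The genes Ndufa4 and Ndufa4l2 were placed with complex IV, where their products are found, despite their symbols.

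Bulk RNA-Seq was run on 33 libraries, 3 for each of 11 groups of cells. All mice were DEREG mice on the C57BL/6 background, which carry a diphtheria toxin receptor fused to eGFP under the Foxp3 promoter, so that Foxp3+ regulatory T cells (Tregs) can be sorted as GFP+ cells. Naive mice had no transplant and no treatment. Tolerant mice received 4000 IEQ (islet equivalents) of porcine neonatal islet cell clusters under the kidney capsule with the anti-CD154 antibody MR-1 (500 µg a dose) and CTLA4-Fc (500 µg), and were taken on day 100. The spleen (SP) gave CD45+CD4- cells and Foxp3- CD4+ T cells from naive and from tolerant mice, SP/naive Tregs, and CD127-/lo and CD127hi Tregs from tolerant mice. The graft gave 1 Treg group, and the draining lymph node (DLN) of the kidney gave DLN/naive Tregs and, from tolerant mice, the subsets DLN/CD127-/lo and DLN/CD127hi. The graft has no counterpart in naive mice, and graft Tregs were not split by CD127. CD127 is the IL-7 receptor alpha chain. Each library is described as a pool of a few mice. Tolerant mice came from more than 1 transplant experiment, and which experiment gave which library is not stated. The naive mice stated for each organ are no more than 1 such pool would hold, so the 3 naive libraries of a group cannot each be a separate pool. P-values below therefore measure the spread between these libraries, which may be partly technical.

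The labels give no sex; the study describes the tolerant mice and the naive spleen donors as male and the naive lymph node donors as female. Xist, the RNA of the inactive X chromosome, was at 405 and 459 CPM in the first and second DLN/naive libraries, at 1.24 CPM in the third and at no more than 5.41 CPM in the other 30. The Y-linked gene Eif2s3y was at 0.710, 0 and 198 CPM in the DLN/naive libraries and at no less than 137 CPM in the other 30. The third DLN/naive library thus goes against the stated sex. In comparisons of DLN/naive Tregs with tolerant mice, sex and tolerance cannot be told apart for the other 2 libraries. Values of the members are given without the third library and, as medians with no test, with it alone.

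Oxidative phosphorylation takes place at the inner mitochondrial membrane. Complex I accepts electrons from NADH and complex II, an enzyme that is also part of the TCA cycle, accepts them from succinate; both pass them through ubiquinone to complex III, and cytochrome c carries them on to complex IV, which reduces oxygen. The proton gradient that complexes I, III and IV build up drives complex V, the ATP synthase. Complex II is encoded wholly in the nucleus, whereas the catalytic or membrane cores of complexes I, III, IV and V also contain subunits encoded by mitochondrial DNA, so their assembly draws on both genomes. Tregs are known to rely more on oxidative phosphorylation and less on glycolysis than conventional effector T cells. The nuclear genes are commonly described as targets of the transcription factors NRF-1 and GABP, an ETS family factor.

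Levels below are CPM, the count of a gene scaled to a fixed total of the reads counted on genes, after TMM scaling between libraries. The 9 DLN libraries, run on a MiSeq, held 844039 to 1935323 read pairs assigned to genes, and the 24 spleen and graft libraries, run on a NextSeq 500, held 2550698 to 4615283. Between DLN and spleen, organ and sequencer therefore cannot be told apart. A count of 3 corresponded to 1.55 to 3.55 CPM in the DLN libraries and to 0.650 to 1.18 CPM in the others. Foxp3 averaged 206 to 600 CPM in the 7 Treg groups and 0.501 to 2.97 CPM in the 4 Foxp3- groups. Summed B cell markers ran from 3557 to 7930 CPM in the CD45+CD4- libraries and reached 695 CPM in a DLN/CD127hi Treg library. RNA from several cells was measured together, so less RNA per cell and fewer cells of a type cannot be told apart.

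Upstream sequences were taken from RefSeq (GRCm38.p6) for 74 of the 93 member symbols, as 79 promoters, and were read over the 250 bases before each transcription start on both strands. The letters GCGCATGC, the core of the NRF-1 motif, were present in 11.4% of these promoters and in 2.26% of all 32851 promoters. The letters CCGGAAG, a core recognised by ETS factors, were present in 17.7% and 6.91%, respectively. The sequence TATAAA was present in 8.86% and 12.4%, respectively. The median GC content was 56.4% for the members and 52.4% for all promoters. A match is a match of letters and not a measured binding site. Promoters of both kinds were spread over the complexes: the NRF-1 core stood upstream of members of complexes I, II, IV and V but of none of the 5 promoters of complex III, and the ETS core upstream of members of all complexes.

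The upstream sequences of 4 well counted members are shown because they carry these matches, which are in capitals on either strand. Ndufa6 is an accessory subunit of complex I (chr15:82354292-82354541, minus strand), Sdhb is the iron-sulfur subunit of complex II (chr4:140961021-140961270, plus strand), Cox6a1 is a subunit of complex IV whose promoter holds both cores, the NRF-1 core first (chr5:115348959-115349208, minus strand), and Atp5j is coupling factor 6 of complex V (chr16:84834977-84835226, minus strand), all in GRCm38.p6 and written 5′ to 3′ towards the start.
Ndufa6: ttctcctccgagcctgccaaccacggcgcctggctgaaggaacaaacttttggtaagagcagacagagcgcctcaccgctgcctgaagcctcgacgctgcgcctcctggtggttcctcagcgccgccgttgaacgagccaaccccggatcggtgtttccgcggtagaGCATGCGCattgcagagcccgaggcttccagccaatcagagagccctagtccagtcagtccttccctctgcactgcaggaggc
Sdhb: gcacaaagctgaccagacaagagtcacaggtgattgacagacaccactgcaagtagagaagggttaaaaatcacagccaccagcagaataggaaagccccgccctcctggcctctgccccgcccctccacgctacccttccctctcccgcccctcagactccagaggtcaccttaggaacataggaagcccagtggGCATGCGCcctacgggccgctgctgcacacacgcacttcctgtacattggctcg
Cox6a1: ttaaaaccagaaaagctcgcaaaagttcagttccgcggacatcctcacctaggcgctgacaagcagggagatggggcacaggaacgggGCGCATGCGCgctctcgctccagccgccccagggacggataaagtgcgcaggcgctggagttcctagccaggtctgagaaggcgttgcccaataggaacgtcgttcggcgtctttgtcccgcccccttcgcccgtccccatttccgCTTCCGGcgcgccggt
Atp5j: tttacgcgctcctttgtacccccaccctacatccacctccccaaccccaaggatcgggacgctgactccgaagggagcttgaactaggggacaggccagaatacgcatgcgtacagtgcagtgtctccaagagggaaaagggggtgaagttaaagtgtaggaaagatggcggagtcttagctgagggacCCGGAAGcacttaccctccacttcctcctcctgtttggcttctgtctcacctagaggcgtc
The match began 83 bases before the start in Ndufa6, 54 in Sdhb and 61 in Atp5j, and 162 and 16 bases before the start in Cox6a1. Atp5j has another listed promoter (chr16:84835626-84835875, minus strand), which held neither core.

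After genes below 1 CPM in every library were set aside, 91 members were tested among 25347 genes. The untested members were Cox8b and Cox8c, with a single count in 1 and 2 libraries, and the second Atp5o identifier, which was at 0 throughout. Of the 91, 83 had a mean of at least 20 CPM. These 83 are used below wherever groups are said not to overlap, with the 6823 genes of the same mean level as the background.

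Members differed among themselves far more than groups did. The most counted was Atp5j of complex V (ENSMUSG00000022890, chr16:84827866-84835625, minus strand), with a mean of 1034 CPM over the 33 libraries. It was followed by Cox6c of complex IV with 907 CPM, Uqcrb of complex III with 863 CPM, Ndufa4 of complex IV with 802 CPM, Cox7b of complex IV with 684 CPM and Ndufa3 of complex I with 655 CPM. These are short transcripts, and for comparison between genes the level was divided by the length of the principal transcript. Per kb, Uqcrb was at 1612 CPM, Ndufa4 at 1511, Cox6c at 1497, Atp5j at 1393, Ndufa1 at 1353 and Ndufa3 at 1272. The catalytic flavoprotein of complex II, Sdha, was at 91.1 CPM per kb and the iron-sulfur subunit Sdhb at 250. The membrane anchors Sdhc and Sdhd were at 14.8 and 91.6. The assembly factors were low, with 54.9 CPM per kb for Ndufaf3, 31.0 for Ndufaf4 and 80.9 for Ndufaf8. Reads that map to more than 1 place were not counted, so members with near copies can lose reads: 22 members had at least 10% of their 75-base windows in other genes, among them Atp5l with 76.0%, Atp5h with 36.5%, Uqcrb with 29.1% and Cox6c with 10.7%.

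Subunit c of ATP synthase, which forms the rotating ring of its membrane part, is made from 3 genes that encode the same mature protein. Atp5g3 was counted most, with a mean of 556 CPM (774 CPM per kb). Atp5g1 had 241 CPM (90.1 per kb) and Atp5g2 had 37.8 CPM (64.5 per kb). The group means of Atp5g3 lay above those of Atp5g1 in every group but were close in DLN/CD127hi Tregs, at 344 CPM for Atp5g3 and 323 CPM for Atp5g1.

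Isoforms that are known from muscle, lung, testis or hypoxic cells were low, and were seen in few libraries. Of the 8 in this list, Cox8b and Cox8c were below the filter. Cox7b2 and Ndufa4l2 had at most 2 and 1 counts in any library. Cox4i2, the lung and hypoxia isoform of subunit 4, had more than 3 counts in 1 library, a DLN/CD127hi Treg library at 19.7 CPM. Cox6a2 and Cox7a1, the heart and skeletal muscle isoforms, exceeded 3 counts in 6 and 7 libraries and averaged 1.52 and 1.59 CPM. Cox6b2, the testis isoform, exceeded 3 counts in 10 libraries and averaged 2.29 CPM, with a highest value of 24.9 CPM. The 8 together summed to 3.89, 23.6 and 25.9 CPM in DLN/CD127hi Tregs and to at most 16.2 CPM in any other library. By comparison, Cox4i1, the common isoform of subunit 4, averaged 403 CPM.

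The 91 tested members together made up between 1.44% and 3.63% of the reads counted on genes. In SP/CD127-/lo Tregs their summed level was 42875, 30759 and 29305 CPM, a mean of 34313 ± 7451 (SD, n = 3). In SP/CD127hi Tregs it was 19621, 27050 and 22509 CPM (23060 ± 3745), and in SP/naive Tregs 23401, 18843 and 25719 CPM (22654 ± 3498). The SP/CD127-/lo values all lay above those of both other spleen Treg groups. In graft Tregs the sum was 28138, 33502 and 22609 CPM (28083 ± 5447), a range that overlapped all 3 spleen Treg groups.

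Foxp3- CD4+ T cells of naive mice summed to 24885, 31130 and 29038 CPM (28351 ± 3179), and those of tolerant mice to 23229, 16487 and 19940 CPM (19885 ± 3371). The 2 groups did not overlap. The CD45+CD4- cells, which contained mostly B cell message, were lowest: tolerant libraries held 15772, 14781 and 16036 CPM (15530 ± 662). Naive libraries held 12722, 13080 and 25318 CPM (17040 ± 7171), so 1 naive library stood at about the level of the CD4+ T cells and the other 2 below every tolerant library.

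DLN Tregs varied widely within each group. DLN/naive Tregs summed to 28221, 16996 and 34339 CPM (26519 ± 8796), DLN/CD127-/lo Tregs to 25182, 14492 and 30235 CPM (23303 ± 8038) and DLN/CD127hi Tregs to 15753, 23542 and 26277 CPM (21857 ± 5461). All 3 DLN groups overlapped one another.

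**Figure D1:**
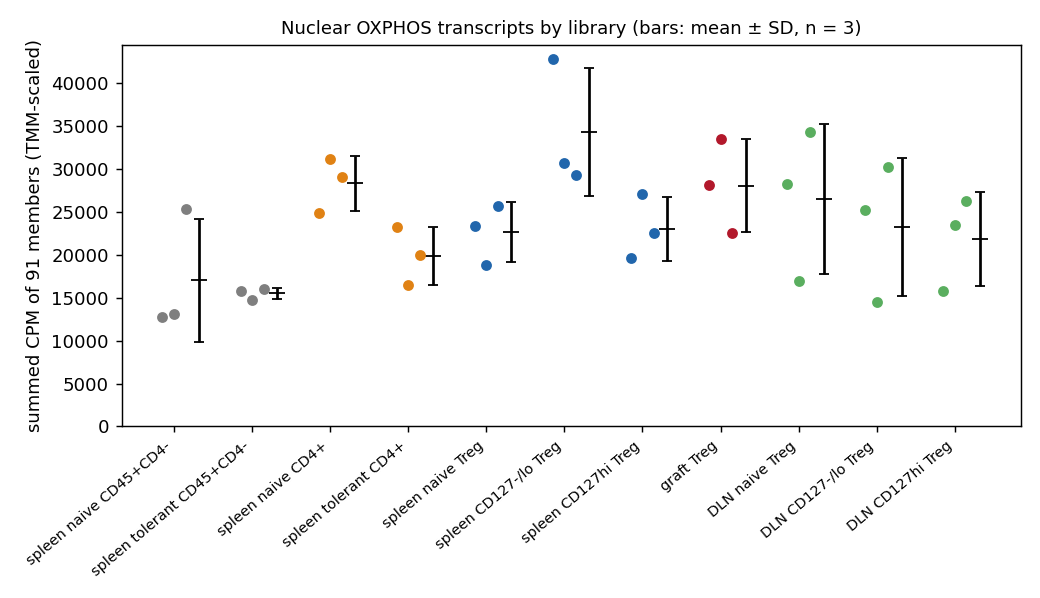
Summed level of the members (CPM, linear axis from 0) in each of the 33 libraries, by group; points are libraries and bars mark the mean with the SD of 3 libraries. The SP/CD127-/lo Treg libraries run from 29305 to 42875 CPM, above all SP/naive and SP/CD127hi Treg libraries, while the 3 DLN groups overlap.

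Most complexes ranked the groups alike at both ends. Group means ran from 4990 to 11941 CPM for complex I subunits, from 492 to 1103 for complex II, from 1791 to 3908 for complex III, from 4195 to 9018 for complex IV and from 3748 to 7995 for complex V. For complexes I, III, IV and V the lowest group was tolerant CD45+CD4- cells and the highest SP/CD127-/lo Tregs. For complex II the lowest was again tolerant CD45+CD4- cells, but the highest was graft Tregs, with 1533, 971 and 806 CPM against 1314, 760 and 679.5 CPM in SP/CD127-/lo Tregs, which overlapped. The assembly factors ran from 307 to 532 CPM. Among the 83 members of at least 20 CPM, SP/CD127-/lo Tregs had the highest of the 11 group means for 50, and tolerant CD45+CD4- cells the lowest for 37. The ratio of the highest to the lowest group mean had a median of 2.74 over the members and reached 18.5 for Sdhc.

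Fold changes below come from edgeR's quasi-likelihood test over all 33 libraries, adjusted by the Benjamini-Hochberg method across all 25347 tested genes, and a gene is called at an adjusted p under 0.05. Across 15 comparisons, 1 member was called in 1 comparison. The likelihood ratio test that the study used called no member in any of the 15, and DESeq2 called members in 7, which are given below. At 3 libraries a group the depth of this test was limited. Of genes of at least 20 CPM, picked at random and simulated with a 4-fold change, 6 of 100 were recovered, and of those with a 16-fold change, 66 of 100. Members are therefore described mainly by their medians, by how many had groups of 3 libraries that did not overlap, and by the same figures over all genes.

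Foxp3- CD4+ T cells of tolerant mice had lower levels of the members than those of naive mice. The median log2 fold change (tolerant over naive) over the 91 members was -0.47, against 0.03 over the genes of at least 20 CPM, and -0.31 without the second naive library. Summed B cell markers were 105, 81.7 and 28.2 CPM in naive and 6.61, 20.7 and 8.76 CPM in tolerant libraries, with Ms4a1 called lower by edgeR's quasi-likelihood test. Summed macrophage markers were 0, 4.43 and 2.35 CPM and 17.8, 29.2 and 15.5 CPM, respectively. Of the erythroid markers Hbb-bs was called lower, with their sum at 317, 0 and 0 CPM in naive and at most 0.684 CPM in tolerant libraries. The part of these markers was not tested. No member was called, where 0.107% of all genes were, and DESeq2 called none. Of the 83 members, 13 were lower at an unadjusted p under 0.05, where 2.20% of the background genes were. The groups did not overlap for 32 members that were lower, where 7.50% of the background genes were, and for 3 that were higher, where 8.90% were. Cox6c, a subunit of complex IV (ENSMUSG00000014313, chr15:35925886-35938246, minus strand), was at 836, 1434 and 1185 CPM in naive and at 547, 508 and 515 CPM in tolerant CD4+ T cells. Its log2 fold change was -1.14 ± 0.33 (SE; adjusted p = 0.259 by edgeR's quasi-likelihood test). Atp5e, the epsilon subunit of the F1 part of ATP synthase (ENSMUSG00000016252, chr2:174461072-174464105, minus strand), was at 255, 585 and 371 CPM in naive and at 230, 118 and 144 CPM in tolerant cells (log2 fold change -1.30 ± 0.48). Every tolerant library lay below every naive one for both genes.

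The members did not all share that direction. The medians were -0.51 for complex I, -0.23 for complex II, -0.73 for complex III, -0.38 for complex IV and -0.40 for complex V, but 0.43 for the complex I assembly factors. The 7 core subunits of complex I among the members, which hold its flavin and iron-sulfur clusters, had a median of 0.54. Atp5d, the delta subunit of F1, was at 34.5, 65.9 and 41.5 CPM in naive and at 192, 66.3 and 105 CPM in tolerant cells (log2 fold change 1.36 ± 0.82). Ndufaf4, a complex I assembly factor, was at 67.3, 86.8 and 114 CPM in naive and at 151, 264 and 118 CPM in tolerant cells (0.99 ± 0.68). In both, the lowest tolerant library lay close to the highest naive one.

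For CD45+CD4- cells, the median log2 fold change (tolerant over naive) over the members was -0.12 and turned direction with 1 library. The test called no member and 0.0355% of all genes, and DESeq2 called none. None was lower or higher at an unadjusted p under 0.05 among the 83, where 1.38% of the background genes were lower. The median was 0.21 without the third naive library, which stood high. Summed B cell markers were 5621, 3557 and 5160 CPM in naive and 7400, 7930 and 6493 CPM in tolerant libraries. Summed T cell markers were 2106, 1763 and 2832 CPM and 1348, 1318 and 1001 CPM, respectively. Neither list overlapped between the groups, the third naive library had the most T cell marker message, and their part in these values was not tested. Ndufa5, an accessory subunit of complex I, was at 218, 169 and 290 CPM in naive and at 145, 102 and 159 CPM in tolerant cells (log2 fold change -0.74 ± 0.45). The change with tolerance in CD4+ T cells was tested against that in CD45+CD4- cells as an interaction: no member was called, where 0.0473% of all genes were, with a median difference of -0.33 on the log2 scale over the 83 members and of 0.03 over the background genes.

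Naive CD4+ T cells had higher levels of the members than naive CD45+CD4- cells. Over the members the median was 0.77 on the log2 scale, against 0.09 in the background. Calls were made for 1.04% of all genes and for no member, and DESeq2 called Ndufs4 and 2.43% of all genes. Of the 83, 24 passed an unadjusted p under 0.05, all of them higher (background 13.2% in either direction), and 24 had groups that did not overlap, again all higher (13.8% of the 6635 protein-coding genes of at least 20 CPM). Ndufa9, an accessory subunit of complex I, was at 51.3, 31.3 and 101 CPM in CD45+CD4- cells and at 373, 133 and 215 CPM in CD4+ T cells. Its log2 fold change was 1.98 ± 0.67 (adjusted p = 0.173 by edgeR's quasi-likelihood test), and every CD4+ T cell library lay above every CD45+CD4- library. Without the high naive CD45+CD4- library, 2 members were called, Atp5g1 and Atp5j, and 1.14% of all genes.

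SP/naive Tregs had somewhat lower levels than naive Foxp3- CD4+ T cells. The median over the members was -0.35 against -0.04 in the background, and -0.23 without the second SP/naive Treg library. Summed macrophage markers were 131, 36.5 and 30.3 CPM in the Tregs and at most 4.43 CPM in the CD4+ T cells, and their part was not tested. Of all genes 0.264% were called, with no member among them, and DESeq2 called no member. Of the 83, 1 was lower at an unadjusted p under 0.05 (background 3.21%). Of the 83, 15 were lower without overlap, where 9.74% of the protein-coding genes of that level were. Sdhc, a membrane anchor of complex II (ENSMUSG00000058076, chr1:171127165-171150603, minus strand), was at 70.2, 69.4 and 97.9 CPM in CD4+ T cells and at 12.4, 16.9 and 45.7 CPM in SP/naive Tregs (log2 fold change -1.66 ± 1.02). Ndufaf7, a complex I assembly factor, was at 61.0, 98.8 and 53.7 CPM and at 24.8, 6.43 and 38.4 CPM, respectively (-1.61 ± 1.08).

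In tolerant mice, SP/CD127-/lo Tregs had higher levels than Foxp3- CD4+ T cells of the spleen, and held the one called member. Cox6c was at 547, 508 and 515 CPM in the CD4+ T cells and at 1476, 1327 and 1289 CPM in the CD127-/lo Tregs, so that the ranges were far apart. Its log2 fold change was 1.38 ± 0.33 (adjusted p = 0.0161 by edgeR's quasi-likelihood test). Of all genes, 0.284% were called. The call was lost under 9 of the 16 alternatives, with adjusted p-values up to 0.424. The median over the members was 0.69 against -0.02 in the background, 0.44 without the first CD127-/lo library and 0.39 with the share of reads outside exons as a covariate. Summed B cell markers were 35.03, 23.9 and 42.2 CPM in CD127-/lo Tregs and 6.61, 20.7 and 8.76 CPM in the CD4+ T cells. Macrophage markers summed to 302, 18.9 and 112 CPM and to 17.8, 29.2 and 15.5 CPM, and erythroid markers to 5.37, 0.252 and 563 CPM and to at most 0.684 CPM. By edgeR's quasi-likelihood test Cd79b, Lyz2 and Hbb-bs were called higher, and the B cell gene Blnk and the T cell gene Lck lower. The part of these markers was not tested. Of the 83, 26 were higher at an unadjusted p under 0.05 (background 4.24%). The groups did not overlap for 44 of the 83 that were higher and 1 that was lower, where 12.2% and 13.9% of the protein-coding genes of that level were. The lower one was Atp5s, coupling factor B of ATP synthase.

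By complex, 20 members of complex I, 1 of complex II, 5 of complex III, 10 of complex IV and 8 of complex V had higher levels in CD127-/lo Tregs without overlap. The medians were 0.78, 0.32, 0.99, 0.70 and 0.59 in that order, whereas the 7 core subunits of complex I had a median of -0.27. Atp5e was at 588, 439 and 320 CPM in CD127-/lo Tregs and at 230, 118 and 144 CPM in CD4+ T cells (log2 fold change 1.45 ± 0.48, adjusted p = 0.299 by edgeR's quasi-likelihood test). DESeq2 called 6 members here, namely Cox6c, Atp5e, Ndufa1, Cox7a2, Uqcrb and Cox8a, and 0.876% of all genes.

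In SP/CD127hi Tregs, set against the same CD4+ T cells, members went both ways around a median of 0.00. That median ran from -0.16 to 0.16 with single libraries left out and was 0.31 with the share of reads outside exons as a covariate. The median was 0.29 for members under 1000 bases, of which 26.5% were higher without overlap (11.9% of protein-coding genes of that length). It was -0.40 for longer members, of which 20.6% were lower without overlap (13.9%). Of all genes 0.324% were called, with no member among them, and DESeq2 called Ndufs8 and 1.06% of all genes. Of the 83, 8 were higher and 4 lower at an unadjusted p under 0.05 (background 4.18% and 4.62%). Groups did not overlap for 15 that were higher and 8 that were lower (background 14.2% and 14.5%). Cox6c was again higher, at 843, 1207 and 1357 CPM (log2 fold change 1.12 ± 0.33, adjusted p = 0.129 by edgeR's quasi-likelihood test). Uqcrc1, a core subunit of complex III, was at 42.2, 22.6 and 35.9 CPM in CD127hi Tregs against 207, 128 and 115 CPM in the CD4+ T cells (-2.16 ± 0.80, adjusted p = 0.324). Both CD127 subsets were compared with the same 3 CD4+ T cell libraries, so these 2 comparisons are not independent. Summed macrophage markers were 250.1, 214 and 147 CPM in CD127hi Tregs and 17.8, 29.2 and 15.5 CPM in the CD4+ T cells, and T cell markers 5587, 5228 and 4842 CPM and 9987, 8525 and 9154 CPM. Lyz2 of the macrophage list, Cd79b and Ms4a1 of the B cell list, and Hbb-bs and Hbb-bt of the erythroid list were called higher there. Their part was not tested.

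Within the spleen of tolerant mice, CD127hi Tregs had lower levels than CD127-/lo Tregs. The median log2 fold change was -0.58 against 0.06 in the background. The test called no member and 0.0907% of all genes, and DESeq2 called Ndufs8 and 0.359% of all genes. Of the 83, 14 were lower at an unadjusted p under 0.05 (background 4.07%). Groups did not overlap for 30 that were lower (background 11.5%) and for 1 that was higher (background 11.5%). Medians were negative for every complex: -0.54 for complex I, -0.66 for its assembly factors, -1.06 for complex II, -0.74 for complex III, -0.44 for complex IV and -0.58 for complex V. Without the highest of the CD127-/lo libraries the median was -0.34.

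Ndufs8, a core subunit of complex I that carries iron-sulfur clusters (ENSMUSG00000059734, chr19:3908863-3912774, minus strand), showed the widest gap. It was at 372, 236 and 198 CPM in SP/CD127-/lo Tregs and at 67.5, 71.0 and 34.7 CPM in SP/CD127hi Tregs. The log2 fold change was -2.22 ± 0.59 (adjusted p = 0.145 by edgeR's quasi-likelihood test). The CD127hi values were also below the 191, 253 and 151 CPM of graft Tregs (graft over CD127hi 1.78 ± 0.58, adjusted p = 0.25) and the 296, 147 and 131 CPM of tolerant CD4+ T cells. SP/naive Tregs, at 160, 59.2 and 191 CPM, overlapped the CD127hi range. Sdhc was at 191, 66.2 and 97.3 CPM in CD127-/lo and at 60.3, 8.88 and 10.1 CPM in CD127hi Tregs (-2.16 ± 1.04). The catalytic subunit Sdha was the exception, at 216, 192 and 175 CPM in CD127-/lo and 299, 237 and 454 CPM in CD127hi Tregs (0.77 ± 0.50).

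Each CD127 subset was also compared with the same 3 SP/naive Treg libraries. In CD127-/lo Tregs the median of the members was 0.61 against 0.01 in the background. No member was called, where 0.0710% of all genes were, and DESeq2 called none. Of the 83, 11 were higher at an unadjusted p under 0.05 (background 2.62%) and 35 had groups that did not overlap (background 10.7%). Without the highest CD127-/lo library the median was 0.33. Sdhd, the other membrane anchor of complex II, was at 285, 154 and 196 CPM in CD127-/lo and at 110, 33.5 and 78.8 CPM in SP/naive Tregs (1.51 ± 0.72). Sdhc was at 12.4, 16.9 and 45.7 CPM in SP/naive Tregs (CD127-/lo over naive 2.24 ± 1.04).

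In SP/CD127hi Tregs the median against SP/naive Tregs was 0.00. No member was called, where 0.0197% of all genes were, DESeq2 called none, and 1 of the 83 was lower at an unadjusted p under 0.05 (background 1.01%). Cox8a, a small subunit of complex IV, was at 415, 630 and 426 CPM in CD127hi and at 408, 250 and 376 CPM in SP/naive Tregs (0.51 ± 0.42).

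**Figure D2:**
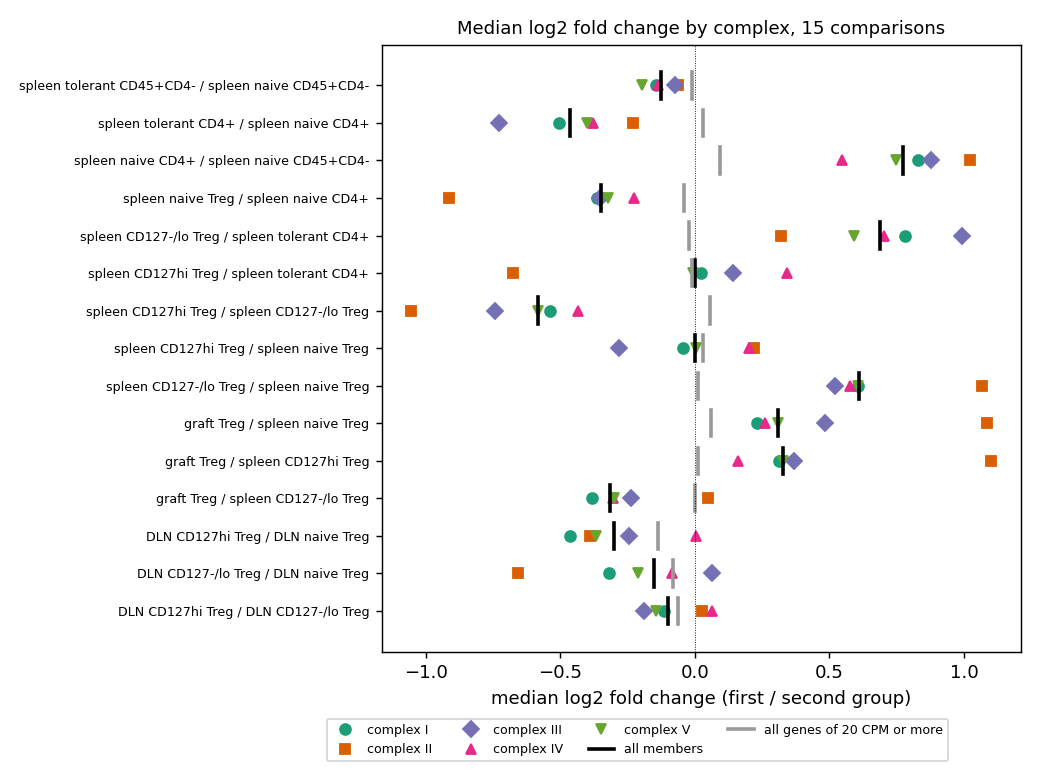
Median log2 fold change of the tested members of each complex in each of the 15 comparisons (symbols), beside the medians of all members (black bars) and of genes of at least 20 CPM (grey bars); the axis is log2 and 0 means no difference. All complexes lie above 0 for SP/CD127-/lo over SP/naive Tregs and below 0 for SP/CD127hi over SP/CD127-/lo Tregs.

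Several properties of the libraries moved with these differences, and their part in them was not tested. The share of reads that overlapped no annotated exon was 13.2%, 24.9% and 25.1% in SP/CD127-/lo Tregs, 29.1%, 33.5% and 28.8% in SP/CD127hi Tregs and 34.6%, 40.2% and 28.2% in SP/naive Tregs. It includes reads in introns as well as reads between genes. With this share as a covariate, a choice made after the data were seen, the median was -0.12 for CD127hi over CD127-/lo and -0.06 for CD127-/lo over SP/naive Tregs, while for tolerant over naive CD4+ T cells it was -0.78. The summed level of 8 T cell markers was also lower in SP/CD127hi Tregs, at 5587, 5228 and 4842 CPM, than in SP/CD127-/lo Tregs, at 11566, 7825 and 8454 CPM. In SP/naive Tregs it was 5297, 4489 and 7395 CPM, again below SP/CD127-/lo Tregs. Summed B cell markers were 106, 6.12 and 109 CPM in SP/CD127hi Tregs and 35.03, 23.9 and 42.2 CPM in SP/CD127-/lo Tregs. By edgeR's quasi-likelihood test the B cell genes Ms4a1 and Cr2 were called higher, and the T cell genes Cd3d and Cd3g lower, in CD127hi over CD127-/lo Tregs. In CD127-/lo over SP/naive Tregs, Ms4a1 was called lower, with means of 0.084 and 3.69 CPM, and the T cell gene Trac higher. The B cell sums of these groups overlapped, at 71.9, 10.1 and 50.3 CPM in SP/naive Tregs. Of the 8 T cell markers, only Lck (1030 against 1345 CPM) and Cd4 (139 against 184 CPM) had lower means in CD127-/lo Tregs.

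The members are short genes, with a median principal transcript of 865 bases at 20 CPM or more against 2921 bases for protein-coding genes at that level. Short genes as a whole moved in the same direction in several comparisons. For CD127hi over CD127-/lo Tregs, members under 1000 bases had a median of -0.54 and all protein-coding genes of that length, members included, -0.64, while longer members had -0.66 and longer protein-coding genes 0.11. For CD127-/lo over SP/naive Tregs the medians were 0.60 and 0.53 below 1000 bases, and 0.65 and -0.05 above. For tolerant over naive CD4+ T cells they were -0.64 and -0.35 below, and -0.05 and 0.07 above. For naive CD4+ T cells over CD45+CD4- cells they were 0.79 and 0.72 below, and 0.67 and 0.01 above. The length limit was set after the data were seen.

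**Figure D3:**
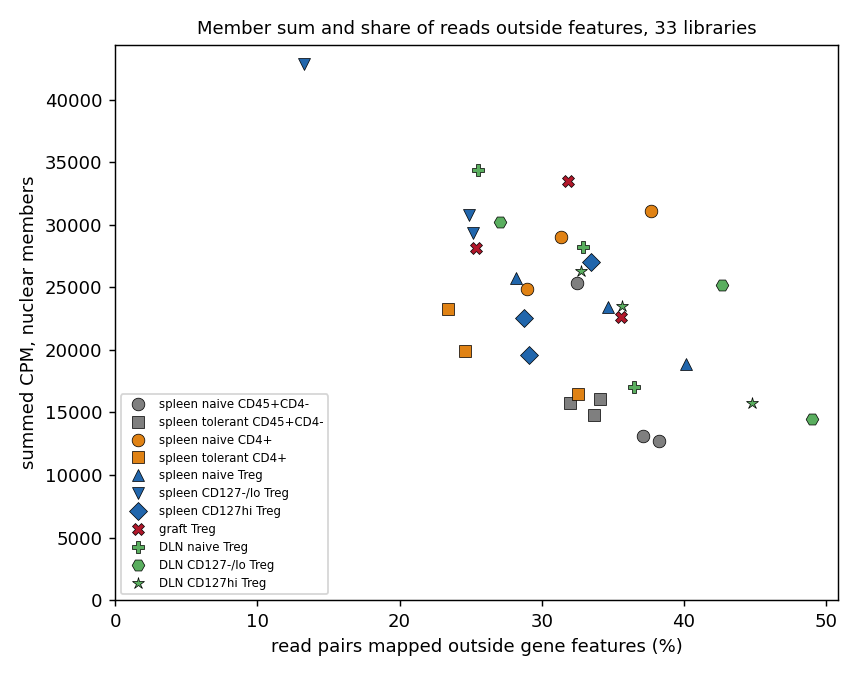
Share of reads outside annotated exons (percent, x axis) and summed level of the members (CPM, y axis) in the 33 libraries, by group. The SP/CD127-/lo Treg library with the lowest share, 13.2%, has the highest sum, 42875 CPM.

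**Figure D4:**
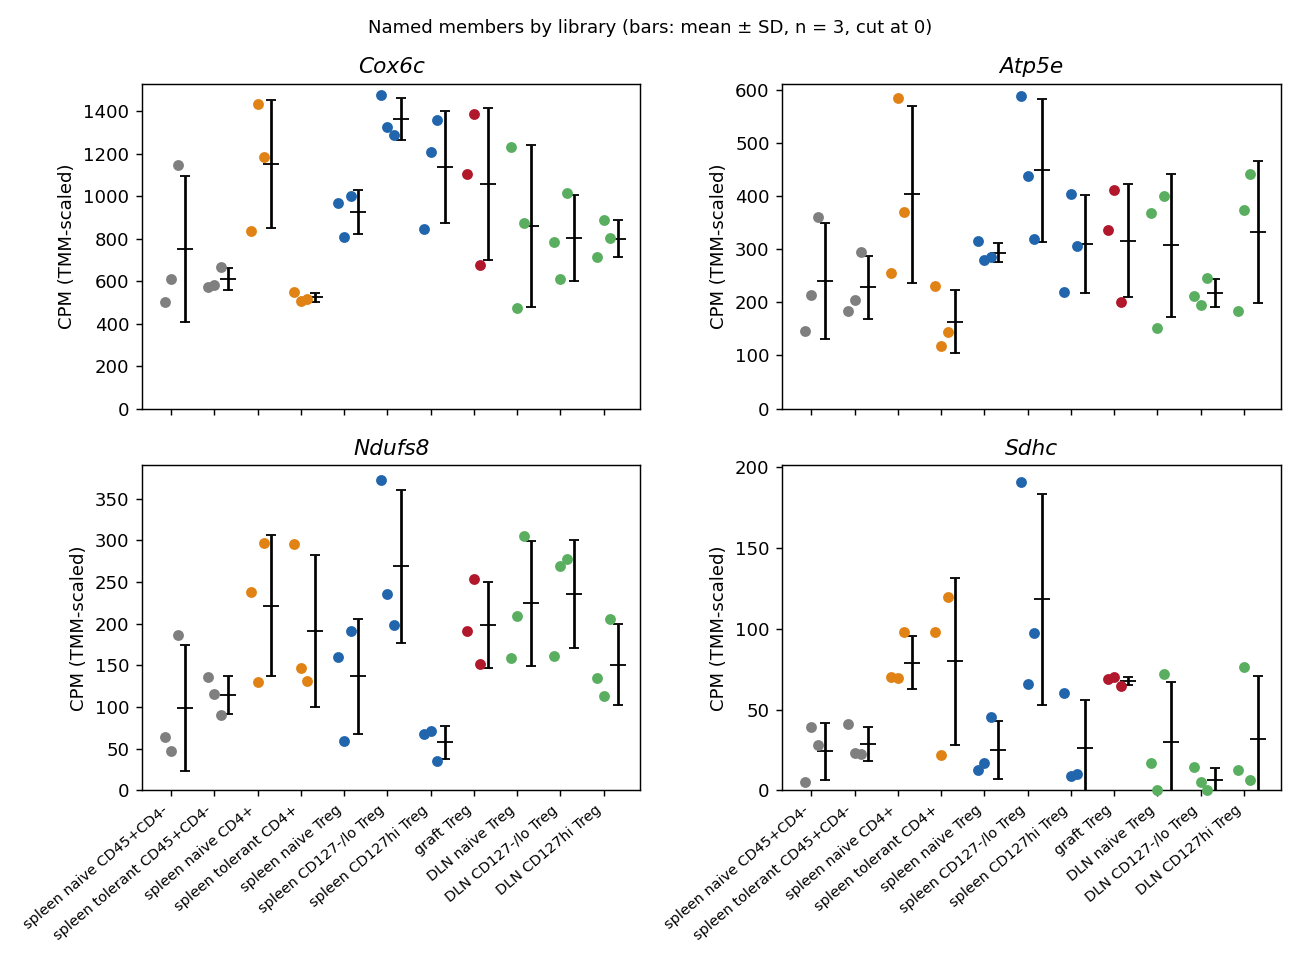
Levels of Cox6c, Atp5e, Ndufs8 and Sdhc (CPM) in every library, by group; points are libraries and bars the mean ± SD of 3, cut at 0. Tolerant CD4+ T cells hold the lowest Cox6c values of the spleen T cell groups (508 to 547 CPM), and SP/CD127hi Tregs have the lowest mean Ndufs8 level (34.7 to 71.0 CPM).

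In graft over SP/naive Tregs the median of the members was 0.31 against 0.06 in the background. It was 0.07 without the second graft library, which had the highest member sum of the graft and 965 CPM of summed kidney proximal tubule markers, and 0.16 without the second SP/naive library. Calls were made for 0.130% of all genes and for no member, and DESeq2 called no member. Of the 83, 2 were higher at an unadjusted p under 0.05 (background 2.26%) and 8 had groups that did not overlap (background 8.22%), so the count was near the background. The median was highest for complex II, at 1.09, against 0.23 for complex I. Sdhc was at 68.8, 70.0 and 64.9 CPM in graft Tregs, above the 12.4, 16.9 and 45.7 CPM of SP/naive Tregs (1.44 ± 1.01). Ndufv1, the flavoprotein of complex I that binds NADH, was at 82.6, 70.2 and 101 CPM in graft Tregs and at 44.1, 12.2 and 38.6 CPM in SP/naive Tregs (1.42 ± 1.10).

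Against SP/CD127hi Tregs the median in graft Tregs was 0.33. Summed T cell markers were 7461, 9643 and 6767 CPM in graft and 5587, 5228 and 4842 CPM in SP/CD127hi Tregs. By edgeR's quasi-likelihood test Kap of the kidney list was called higher, and Ms4a1 and Hbb-bs lower. Their part was not tested. Of all genes 0.103% were called, with no member among them, and DESeq2 called Ndufs8 and 1.03% of all genes. Of the 83, 3 were higher at an unadjusted p under 0.05 (background 3.24%) and 13 had groups that did not overlap (background 8.75%). Without the second graft library the median there was 0.14, and without the first SP/CD127hi library 0.19. Against SP/CD127-/lo Tregs the median was -0.31, but -0.10 without the first SP/CD127-/lo library, -0.48 and -0.19 without the second and the third graft library, and 0.18 with the share of reads outside exons as a covariate. No member was called, where 0.0829% of all genes were, DESeq2 called none, and 1 of the 83 was higher at an unadjusted p under 0.05 (background 2.14%). There, groups did not overlap for 5 that were lower (background 7.83%) and 2 that were higher (background 7.30%). Sdha was one of those higher, at 556, 303 and 374 CPM in graft Tregs and 216, 192 and 175 CPM in SP/CD127-/lo Tregs (1.08 ± 0.50).

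In the DLN, medians depended on single libraries. For DLN/CD127hi over DLN/naive Tregs the median was -0.30 against -0.14 in the background. It was -0.09 without the third DLN/naive library, -0.61 with that library alone and -0.55 without the third DLN/CD127hi library. With the share of reads outside exons as a covariate it was -0.0007. Summed B cell markers were 695, 539 and 141 CPM in DLN/CD127hi and 58.2, 11.9 and 3.72 CPM in DLN/naive Tregs. Summed macrophage markers were 609, 898 and 777 CPM and 346, 2.80 and 429 CPM, respectively. Neither list overlapped between the groups, and their part was not tested. The test called no member and 0.951% of all genes, and DESeq2 called Ndufs4 and 3.78% of all genes. Of the 83, 7 were lower at an unadjusted p under 0.05 (background 10.2%) and 3 had groups that did not overlap (background 7.33%). Ndufs4, an accessory subunit of complex I (ENSMUSG00000021764, chr13:114287795-114388258, minus strand), was at 532, 261 and 402 CPM in DLN/naive and at 138, 203 and 121 CPM in DLN/CD127hi Tregs (-1.37 ± 0.48, adjusted p = 0.189 by edgeR's quasi-likelihood test). Ndufs3, a core subunit of complex I, was on the other side, at 85.9, 96.0 and 110 CPM in DLN/naive and 146, 197 and 175 CPM in DLN/CD127hi Tregs (0.83 ± 0.70).

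Sdhd was nearly absent from 2 of the 3 DLN/CD127hi libraries, at 1.95, 0.788 and 92.3 CPM against 104, 58.9 and 98.6 CPM in DLN/naive Tregs. It was not called, but without the library at 92.3 CPM it was, as were 1.02% of all genes. Ndufaf8, a complex I assembly factor, was likewise at 36.0, 0 and 1.04 CPM in DLN/CD127hi and at 39.0, 28.0 and 76.3 CPM in DLN/naive Tregs, and was called without the library at 36.0 CPM, again with 1.02% of all genes. A count of 0 there allowed a level of up to 2.58 CPM before TMM scaling.

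For DLN/CD127-/lo over DLN/naive Tregs the median was -0.15, and its direction turned with single libraries. It was 0.02 without the third DLN/naive library, -0.46 with that library alone, 0.05 without the second DLN/CD127-/lo library and 0.10 with the covariate. B cell markers summed to 98.1, 360 and 81.0 CPM in DLN/CD127-/lo, above all DLN/naive libraries, and their part was not tested. No member was called, where 0.355% of all genes were, and DESeq2 called Ndufb6 and 2.47% of all genes. Of the 83, 2 were lower at an unadjusted p under 0.05 (background 6.38%) and 2 were lower without overlap (background 4.78%). Ndufb6, an accessory subunit of complex I, was at 212, 170 and 200 CPM in DLN/naive and at 80.7, 0.996 and 84.2 CPM in DLN/CD127-/lo Tregs (-1.81 ± 0.78, adjusted p = 0.453 by edgeR's quasi-likelihood test). Of its exon bases, 39.0% lie under Smim27, and 31.3% of its 75-base windows occur in other genes, and reads shared with another gene were not counted, so its count may be too low.

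For DLN/CD127hi over DLN/CD127-/lo Tregs the median was -0.10. It was positive without the first (0.09) or the third (0.15) DLN/CD127-/lo library and without the first DLN/CD127hi library (0.04). Calls were made for 0.418% of all genes and for no member, and DESeq2 called no member. Of the 83, 4 were lower and 1 higher at an unadjusted p under 0.05 (background 8.47% and 7.45%). Atp5c1, the gamma subunit that forms the central shaft of the F1 motor, was at 436, 558 and 538 CPM in DLN/CD127-/lo and at 174, 270 and 223 CPM in DLN/CD127hi Tregs (-1.20 ± 0.43, adjusted p = 0.24 by edgeR's quasi-likelihood test). Summed B cell and macrophage markers were 695, 539 and 141 CPM and 609, 898 and 777 CPM in the DLN/CD127hi libraries, against 98.1, 360 and 81.0 CPM and 120, 748 and 102 CPM in DLN/CD127-/lo. Their part in these values was not tested.

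The spleen and DLN differences were also tested against each other (spleen minus DLN, on the log2 scale), over the 83 members and the background genes of the same level. For CD127hi against CD127-/lo Tregs the median of the members was -0.47 against 0.07, with 4 at an unadjusted p under 0.05, all lower (background 10.4% in either direction), and no member called, where 0.118% of all genes were. For CD127-/lo against naive Tregs it was 0.79 against 0.10, with 10 higher and none lower (background 5.64% and 4.21%) and no member called, where 0.138% of all genes were. The smallest adjusted p of that test was 0.254, for Ndufa4 (edgeR's quasi-likelihood test). Without the third DLN/naive library the median was 0.57 with 4 higher, and with that library alone 1.15. For CD127hi against naive Tregs it was 0.28 against 0.17, with 3 higher and none lower (background 5.42% and 3.75%) and no member called, where 0.225% of all genes were. That median was -0.02 without the third DLN/naive library and 0.53 with it alone.

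The subunits encoded in mitochondrial DNA had a median near that of the nuclear ones in some comparisons and not in others; the difference between them was not tested. For SP/CD127-/lo Tregs over tolerant CD4+ T cells their median log2 fold change was 0.78 (0.69 for the nuclear members), with mt-Nd1, mt-Nd2 and mt-Cytb called higher by edgeR's quasi-likelihood test. For tolerant over naive CD4+ T cells it was -0.61 (-0.47), with 12 of 12 lower and none called. For SP/CD127hi Tregs over tolerant CD4+ T cells it was 0.76 (0.00), with 12 of 12 higher and mt-Nd2 and mt-Nd4 called, and for DLN/CD127hi over DLN/naive Tregs 0.65 (-0.30), again with 12 of 12 higher and mt-Co1 and mt-Nd4 called. Some directions among the 12 rest on few counts. In DLN/naive and DLN/CD127hi Tregs mt-Co2 averaged 0.207 and 1.13 CPM, mt-Atp6 0.677 and 1.56 CPM and mt-Atp8 0 and 0.324 CPM. In naive and tolerant CD4+ T cells mt-Atp8 averaged 0.219 and 0 CPM. The DLN values of this list are given with all 3 DLN/naive libraries only. For graft over SP/CD127-/lo Tregs it was 0.81 (-0.31), with mt-Cytb and 3 subunits of complex I (mt-Nd4, mt-Nd2 and mt-Nd1) called higher.

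The summed level of 12 tested mitochondrial genes was 75019, 49445 and 56302 CPM in graft Tregs. It was 25095, 21488 and 17587 CPM in SP/naive, 51404, 23574 and 34073 CPM in SP/CD127-/lo and 26503, 35753 and 32618 CPM in SP/CD127hi Tregs. Divided by the nuclear sum, this gave 2.67, 1.48 and 2.49 in graft Tregs (2.21 ± 0.64). The first and the third graft libraries lay above every other library, while the second was level with the highest of the CD45+CD4- cells. The ratio was 1.07, 1.14 and 0.684 in SP/naive Tregs, and 0.538, 0.531 and 0.447 in DLN/naive Tregs, the lowest group mean. DLN/CD127-/lo Tregs overlapped DLN/naive Tregs, at 0.507, 0.669 and 0.446, and DLN/CD127hi Tregs were at 0.767, 1.15 and 0.648. Organ and sequencer cannot be told apart here. In graft over SP/naive Tregs, 6 of the 12 were called, all higher: mt-Cytb, mt-Nd1, mt-Nd2, mt-Nd4, mt-Nd5 and mt-Co1. mt-Cytb, the only mitochondrially encoded subunit of complex III, was higher by 1.69 ± 0.18 (SE) on the log2 scale (adjusted p = 6.83e-14 by edgeR's quasi-likelihood test). The kidney proximal tubule markers summed to 178, 965 and 21.5 CPM in the graft libraries and to at most 31.9 CPM elsewhere, and their part was not tested. Reads were counted only where they mapped uniquely, and mt-Atp6, mt-Atp8, mt-Co2 and mt-Co3 averaged at most 11.8 CPM in any group.

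**Figure D5:**
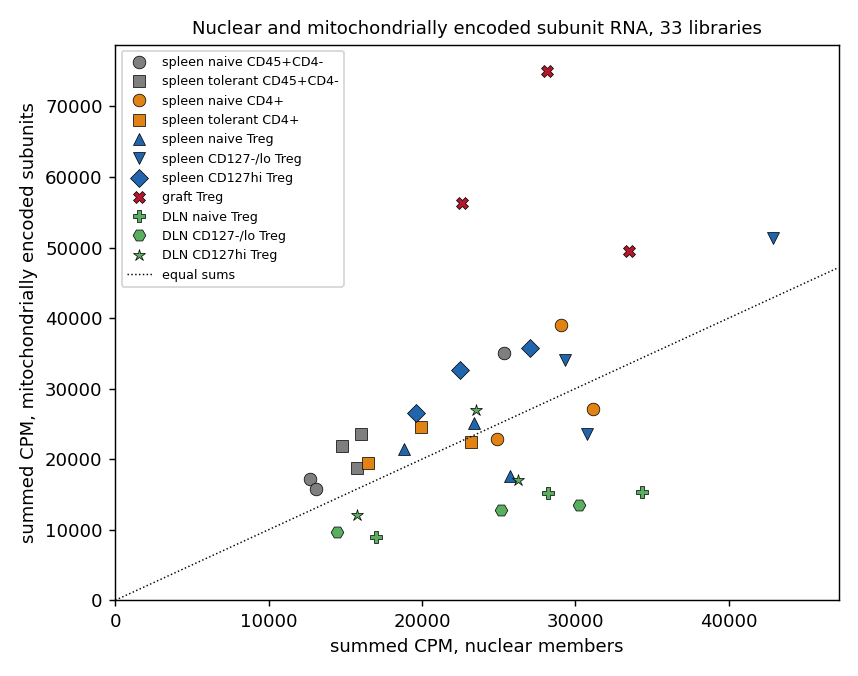
Summed level of the 12 mitochondrially encoded subunits (CPM, y axis) against that of the nuclear members (CPM, x axis) in the 33 libraries, by group; both axes are linear from 0 and the dotted line marks equal sums. Graft Tregs lie above the line, with a mean ratio of 2.21, and DLN/naive Tregs below it, with a mean ratio of 0.505. DLN/CD127-/lo Tregs also lie below it, with ratios from 0.446 to 0.669.

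Of other mitochondrial gene lists, 34 assembly factors and respiratory chain genes outside the rule were tested. Sdhaf3, an assembly factor of complex II, was the only one called: its mean was 36.7 CPM in naive CD45+CD4- and 0.240 CPM in naive CD4+ T cells. In the DLN, Sdhaf3 was at 24.5, 72.7 and 142 CPM in DLN/CD127-/lo, at 3.89, 0 and 112 CPM in DLN/CD127hi and at 0, 0 and 0.620 CPM in DLN/naive Tregs. The DLN/CD127hi and DLN/naive ranges overlapped, and without the library at 112 CPM that call was lost (adjusted p = 0.595 by edgeR's quasi-likelihood test). Both DLN calls were also lost without the first or the second DLN/naive library, and that of naive CD4+ T over CD45+CD4- cells without the first or the second CD4+ library, with adjusted p-values from 0.052 to 0.0831 in edgeR's quasi-likelihood test. None of 13 TCA cycle enzymes and none of 16 regulators of mitochondrial biogenesis, Nrf1, Gabpa and Tfam among them, was called in any of the 15 comparisons by edgeR's quasi-likelihood test. At an unadjusted p under 0.05, 3 of the TCA cycle enzymes were lower in SP/CD127hi Tregs over tolerant CD4+ T cells, where 3.88% of all tested genes were, and 3 in DLN/CD127hi over DLN/naive Tregs, where 4.74% were. Most of these enzymes averaged over 20 CPM, and of the genes of at least 20 CPM 4.62% and 10.2% were lower, respectively. In DLN/CD127hi over DLN/naive Tregs 5 of the regulators were higher, where 5.89% of all tested genes were, a background that is not matched for level.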

How the data were processed

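The authors trimmed reads with Trim Galore after FastQC, removed pairs that became too short, and aligned the rest with STAR to mm10 with EGFP added. They deposited raw counts of read pairs per Ensembl gene for each of 33 SMART-Seq v4 and Nextera XT libraries (2 × 75 bp). The layout is that of STAR gene counts, although HTSeq is named, and the unstranded column was used here. Reads over more than 1 gene were set aside as ambiguous and reads with several placements were not counted, so overlapping and antisense genes and near copies can lose reads. All 33 libraries entered, 3 for each of 11 groups, grouped by their labels; 42 of 31054 identifiers had no symbol in the GRCm38 annotation. The members, the other gene lists and the comparisons were chosen with earlier results of these data known.

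Counts were scaled by TMM and fitted with edgeR 4.0.16 (R 4.3.3) in 1 quasi-likelihood model with a mean per group, over the 25347 genes that reached 1 CPM in 1 or more libraries. P-values were adjusted over these genes by the Benjamini-Hochberg method, and the test was two-sided. CPM values are TMM-scaled, and floors cover counting error only. An exact permutation test of 3 against 3 libraries cannot go below p = 0.1 and was not used. The model was tested on 33 libraries simulated from the mean level and spread of each gene over all groups. Changes were put into the graft libraries for 200 genes of at least 20 CPM, picked at random. They were read in graft over SP/naive Tregs, with 21398 genes tested, where 2 unchanged genes were called. Lengths are those of the principal transcript.

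Named members were those called; the 2 with the highest mean CPM, and the 1 with the highest CPM per kb, of each complex; up to 2 per direction and comparison with the largest log2 fold change among those of at least 20 CPM whose groups did not overlap; the subunit c genes; the tissue-restricted isoforms; and of other lists the genes called. Cox4i1, Cox7b, Atp5l, Atp5h, Ndufa6, Cox6a1 and the members called under other settings were named after their values were seen. Alternatives were RLE scaling, other filters on low counts, the likelihood ratio test, DESeq2 1.42.0, ComBat-Seq counts (sva 3.50.0), fits to the compared libraries, scaling without mitochondrial genes, a replicate block, each library left out, the share of reads outside exons as a covariate and the third DLN/naive library alone, the last 2 added after the data were seen. Islet endocrine markers summed to at most 23.5 CPM and erythroid markers to at most 935 CPM, in an SP/CD127hi library.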

Additional observations from a re-analysis of the deposited data

How the results depend on the processing

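The single call, Cox6c in SP/CD127-/lo Tregs over tolerant CD4+ T cells, kept its direction under all 16 alternatives and its call under 7. Its adjusted p was 0.424 by the likelihood ratio test, 0.101 on ComBat-Seq counts and 0.0866 with the share of reads outside exons as a covariate (0 members called under each), and 0.0503 to 0.135 with any 1 of the 6 libraries left out (0 called each time). In that comparison DESeq2 called 6 members among 222 genes, a fit to the compared libraries 16 among 342 and a replicate block 2 among 87, Cox6c and Atp5j, where 72 genes were called without these changes. Replicate numbers did not pair the libraries: the median correlation of deviations was 0.001 over 165 pairs with the same number and -0.002 over 330 others, 11 of 33 libraries were closest to their own number, and the replicate block changed no other count of called members. DESeq2 called 1 member in each of 6 further comparisons: naive CD4+ T over CD45+CD4- cells, SP/CD127hi Tregs over tolerant CD4+ T cells, SP/CD127hi over SP/CD127-/lo, graft over SP/CD127hi, DLN/CD127hi over DLN/naive and DLN/CD127-/lo over DLN/naive Tregs. A fit to the compared libraries called 1 (Ndufa9), 4 and 1 in the first 3 of these, among 396, 306 and 27 genes. With libraries left out, called members ranged from 0 to 2 for naive CD4+ T over CD45+CD4- cells (2 among 288 genes without the third naive CD45+CD4- library). They ranged from 0 to 2 for DLN/CD127hi over DLN/naive and over DLN/CD127-/lo Tregs (Ndufaf1 and Ndufaf8 without DLN/CD127hi library 1, Atp5s without 2, Sdhd without 3). These were among 246, 371 and 255 genes over DLN/naive and 141, 232 and 145 over DLN/CD127-/lo Tregs. For DLN/CD127-/lo over DLN/naive Tregs they ranged from 0 to 1 (Atp5d, among 74 genes, without the second DLN/CD127-/lo library). The median log2 fold change then ranged from -0.29 to 0.21 for tolerant over naive CD45+CD4- cells and from 0.57 to 1.16 for naive CD4+ T over CD45+CD4- cells, with 0.21 and 1.16 reached without the third naive CD45+CD4- library. Without single libraries the median also ranged across 0 for SP/CD127hi Tregs over tolerant CD4+ T cells (-0.16 to 0.16), SP/CD127hi over SP/naive (-0.14 to 0.09), DLN/CD127-/lo over DLN/naive (-0.40 to 0.05) and DLN/CD127hi over DLN/CD127-/lo Tregs (-0.32 to 0.15). With the covariate, added after the data were seen, medians were -0.78 for tolerant over naive CD4+ T cells, 0.31 for SP/CD127hi over tolerant CD4+ T cells, -0.12 for SP/CD127hi over SP/CD127-/lo, -0.059 for SP/CD127-/lo over SP/naive and 0.18 for graft over SP/CD127-/lo Tregs, and Ndufs5 in the last went from -0.48 to 0.24. RLE scaling put the complex I sum at 9195 CPM in naive CD4+ T cells and 9387 CPM in DLN/CD127hi Tregs, and the median of DLN/CD127hi over DLN/naive Tregs at -0.13 in place of -0.30. Over all genes DESeq2 called between 33 and 959 in the 15 comparisons, where edgeR's quasi-likelihood test called between 5 and 263 and its likelihood ratio test between 0 and 285. The causes were not tested. In the DLN libraries 3 counts stood for up to 3.55 CPM.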
